A study of Glycine max with 48 samples.

Results

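Anthers of soybean plants under combined heat and water deficit were compared with anthers of unstressed plants, with 3 libraries on each side. These 6 libraries were chosen by their labels (organ and treatment) from the 48 of the series, which covers the sepal, anther, ovary and stigma of Glycine max, cultivar Magellan. Day and night temperatures were 28 and 24 °C for control plants, which were given 100% of the water available for transpiration. They were 38 and 28 °C for the stressed plants, which were given 30%. All plants were of the same cultivar, inoculated with Bradyrhizobium japonicum, and had grown under 12 h of light for 16 to 18 days until the first flower opened, when treatment began. A library came from 10 to 15 flowers pooled over 8 to 10 plants, and the labels call these pools biological repeats. The treatments ran in 4 growth chambers standing side by side. The sources used here do not say which treatment ran in which of them, and if each held 1 treatment, the effects of chamber and treatment cannot be told apart.

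The anther is the pollen-forming organ of the flower. Its inner wall layer, the tapetum, feeds the developing pollen and supplies material for the pollen coat, and maturing pollen accumulates a large store of transcripts of genes that are little used elsewhere in the plant. Pollen development is among the most heat-sensitive steps of plant reproduction. Anther libraries hold RNA of all these tissues together, so a lower level of a transcript cannot be separated into fewer cells of a type and less RNA per cell.

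Expression was deposited as FPKM, the number of sequenced fragments of a gene relative to its length and to all mapped fragments of that library. FPKM is a relative scale, on which a fall of abundant transcripts raises the values of all others, and the main results are therefore given on 2 scales, the deposited one and one rescaled by the median of ratios. Where a sentence names no scale, its values are as deposited. The rescaling divides a library by the median ratio of its genes to their mean over the 12 anther libraries, from 18553 genes at 1 FPKM or more in each of them. The divisors were 0.764, 0.904 and 0.926 in the control libraries and 1.42, 1.22 and 1.39 in the combined-stress libraries. Rescaling by itself lowers the log2 fold changes of genes well above 1 FPKM by the log2 ratio of these divisors, and neither scale measures RNA per anther. Absolute depth is unknown. Relative depth, read from the steps between low values, ran from 1 to 1.60 over the 12 anther libraries, with 1.06 to 1.35 in the controls and 1 to 1.15 under combined stress.

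A group of 1621 anther-enriched genes was defined on the water-deficit libraries, which belong to neither group compared. These genes had at least 5 FPKM in the anther and at least 8-fold over each other organ. Because the organ labels themselves define the group, its shares show likeness between libraries of the same label. The label itself was not checked. In control anthers 55.7% ± 3.30 (SD, n = 3) of all FPKM fell on these genes, against 1.02% ± 1.06 in control sepals, 0.446% ± 0.164 in control ovaries and 2.81% ± 1.48 in control stigmas. Under combined stress they still held 33.0% ± 5.48 in the anther. Named markers of tapetum or pollen were not examined, because the files pair no gene name with an identifier and 0 of the 57147 identifiers matched the reference gene table. For the same reason the 43 lists of genes by function were not built, and genes appear by identifier with no role given.

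Anther-enriched genes held a smaller share of summed FPKM in every combined-stress library than in any control. The share was 59.5%, 54.6% and 53.2% in control replicates 1, 2 and 3. It was 31.0%, 39.2% and 28.8% in combined-stress replicates 1, 2 and 3. All 3 stressed libraries lay below all 3 controls, with stressed replicate 2 the closest to them. The difference of the means was -22.7 percentage points, several times the spread within either group, and the two-sided exact permutation test gave p = 0.1, the smallest that 3 libraries against 3 allow (0.114 after Benjamini-Hochberg adjustment over 8 such measures). The share was 55.8% ± 2.47 (SD, n = 3) under water deficit alone and 51.0% ± 3.39 under heat alone, so that the lowest heated library, at 47.3%, was above every combined-stress library.

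**Figure D1:**
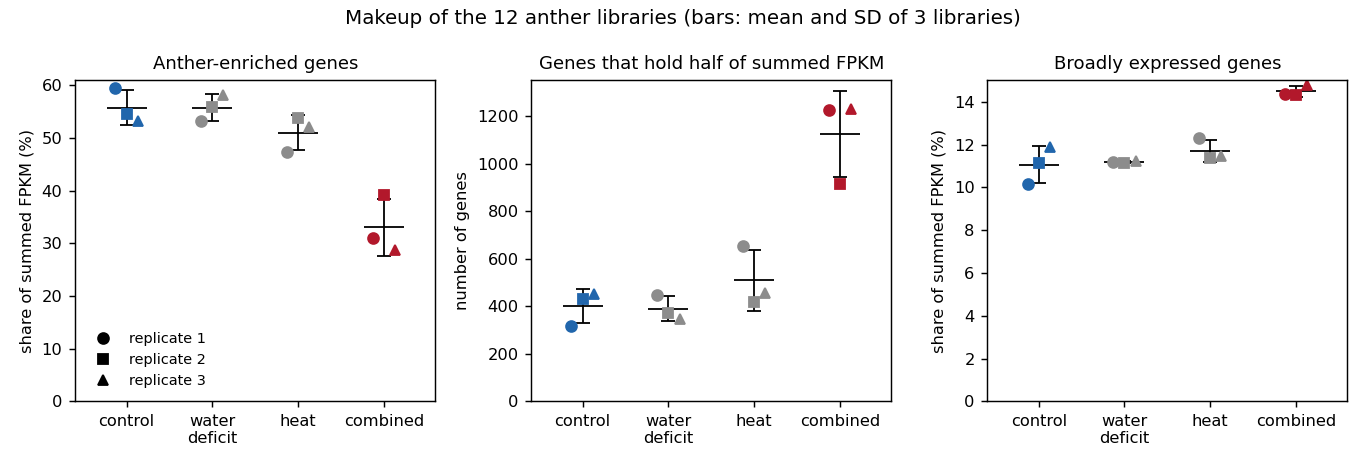
Share of summed FPKM held by anther-enriched genes (left, %), number of genes that together hold 50% of summed FPKM (middle) and share held by broadly expressed genes (right, %) in each anther library, with symbols for replicates and bars for mean and SD of 3 libraries. Combined-stress libraries sit at 28.8 to 39.2% on the left against 53.2 to 59.5% in controls, and above all controls in the other panels.

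FPKM was also spread over more genes in the stressed libraries. In control replicates 1, 2 and 3, the fewest genes that together held 50% of summed FPKM numbered 319, 430 and 452. In combined-stress replicates 1, 2 and 3, they numbered 1225, 917 and 1232. Every stressed library thus needed more genes than any control (exact permutation p = 0.1, adjusted p = 0.114). The 50 most abundant genes of a library held 24.5% ± 1.47 (SD, n = 3) of summed FPKM in controls and 17.7% ± 2.43 under combined stress. Genes at 1 FPKM or more numbered between 21701 and 23304 in controls and between 25584 and 28209 under combined stress. After rescaling, these ranges came closer, at 23319 to 23970 and 24482 to 26098, and still did not overlap.

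The genes outside the anther-enriched group held 44.3% ± 3.30 (SD, n = 3) of summed FPKM in controls and 67.0% ± 5.48 under combined stress. The ratio of these shares was 1.51, or 0.60 on the log2 scale. The summed FPKM of these genes went from 289118 ± 17574 to 408134 ± 33917, a smaller ratio of 1.41, or 0.50 on the log2 scale. Total FPKM itself was lower under combined stress, at 609377 ± 12629 against 653785 ± 9313 in controls. Over all genes tested, the median log2 fold change as deposited was 0.61. After rescaling it was 0.15. The anther-enriched genes themselves went from a summed FPKM of 364666 ± 26882 (SD, n = 3) to 201244 ± 33622, a ratio of 0.552.

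Genes were tested one by one with limma on log2(FPKM + 1), in a fit of the 12 anther libraries, for the 28529 genes that reached a mean of 1 FPKM in at least 1 of the 4 treatments. A gene was called higher or lower at a Benjamini-Hochberg adjusted p under 0.05. As deposited, 14766 genes were called higher under combined stress (51.8% of those tested) and 3044 lower (10.7%). After rescaling, 5988 were called higher (21%) and 5389 lower (18.9%). The split between higher and lower genes thus depended on the rescaling chosen. Upper-quartile rescaling in place of the median of ratios gave 10472 higher and 4080 lower. On both scales together, 5988 genes were called higher and 3044 lower. These equal the higher count after rescaling and the lower count as deposited, so in each direction the stricter scale alone set the call. The counts after median-of-ratios rescaling depend on which genes set the divisors. With those at 5 FPKM or more in every library, an alternative chosen after the data were seen, 10933 were higher and 3917 lower after rescaling. With those above 0, also chosen after the data were seen, 4201 were higher and 5906 lower. Of the genes called on both scales, 1443 rose and 1563 fell by at least 2-fold on both scales (5.06% and 5.48%), and 83 rose and 41 fell by at least 8-fold. Another 8776 genes were called higher as deposited only, 2343 were called lower after rescaling only, and 2 were called higher as deposited and lower after rescaling. The filter also mattered: with at least 5 FPKM required in 1 group, 9110 genes were called higher and 2695 lower as deposited.

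**Figure D2:**
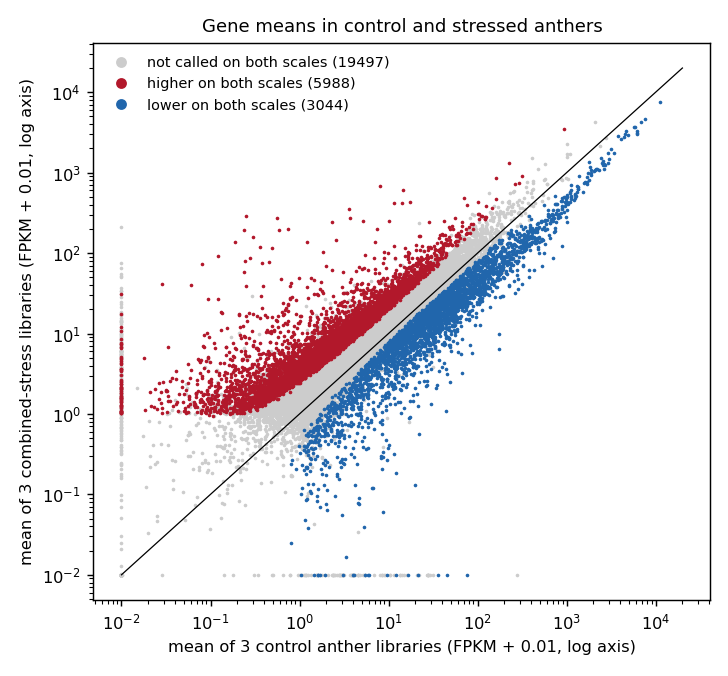
Mean FPKM of the 3 control anther libraries (x, log axis, 0.01 added) against that of the 3 combined-stress libraries (y, log axis, 0.01 added) for the 28529 genes tested, with the line of equal values. The 5988 genes called higher on both scales lie mostly at low to middle control levels, and most of the genes above 1000 FPKM in controls lie below the line.

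The genes called higher on both scales held 4.63% ± 0.688 (SD, n = 3) of summed FPKM in controls and 16.7% ± 2.82 under combined stress, and those called lower held 61.3% ± 4.17 and 32.0% ± 5.78. These shares describe the called genes and were not tested. The 2 directions were spread over all 20 chromosomes, as read from the identifiers. Between 18.7% and 23.7% of the genes tested on a chromosome were called higher on both scales, and between 9.02% and 12.5% lower.

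Anther-enriched genes fell in large number on either scale. As deposited, 1219 of the 1621 (75.2%) were called lower and 117 (7.22%) higher, against 10.7% and 51.8% of all genes tested. Their median log2 fold change was -1.19. After rescaling, 1309 were called lower and 35 higher, with a median of -1.80. All 1621 passed the filter through the water-deficit libraries that defined them. On both scales 981 fell by at least 2-fold and 164 by at least 4-fold, against 5.48% and 0.817% of all genes tested, while 25 rose by at least 2-fold, against 5.06%. The median difference of these genes from the control mean was -1.27, -0.89 and -1.37 (log2, as deposited) in combined-stress replicates 1, 2 and 3, and -1.96, -1.39 and -2.02 after rescaling. As deposited, it was -0.40, -0.23 and -0.36 in the heated libraries and -0.09, -0.09 and 0.04 in those under water deficit, and after rescaling -0.72, -0.36 and -0.57, and -0.23, -0.10 and 0.19. On both scales each combined-stress library lay below every library of the other treatments. With 4-fold in place of 8-fold, the group held 2215 genes, of which 1575 were called lower as deposited. Defined on the control libraries instead, it held 1672 genes, of which 1291 were called lower. Defined on all libraries, it held 1730, of which 1212 were called lower (70.1%) and 233 higher (13.5%). The last 2 definitions use libraries that are compared here, so they are not independent of the fold changes.

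Broadly expressed genes, the 2986 with at least 5 FPKM in every organ and organ means within 2-fold, had no direction that held on both scales. As deposited, 1386 were called higher (46.4%) and 180 lower (6.03%), against 51.8% and 10.7% of all genes tested. The median log2 fold change was 0.31, against 0.61 for all genes tested. After rescaling, 231 were called higher (7.74%) and 1017 lower (34.1%), against 21% and 18.9%, with a median of -0.28, against 0.15. The share called higher was thus below that of all genes tested on both scales. Their share of summed FPKM was 10.2%, 11.2% and 11.9% in control replicates 1, 2 and 3. It was 14.4%, 14.3% and 14.8% in combined-stress replicates 1, 2 and 3, above every control (exact permutation p = 0.1, adjusted p = 0.114). On both scales, 231 rose and 180 fell, 7.74% and 6.03% of the group, against 21% and 10.7% of all genes tested.

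**Figure D3:**
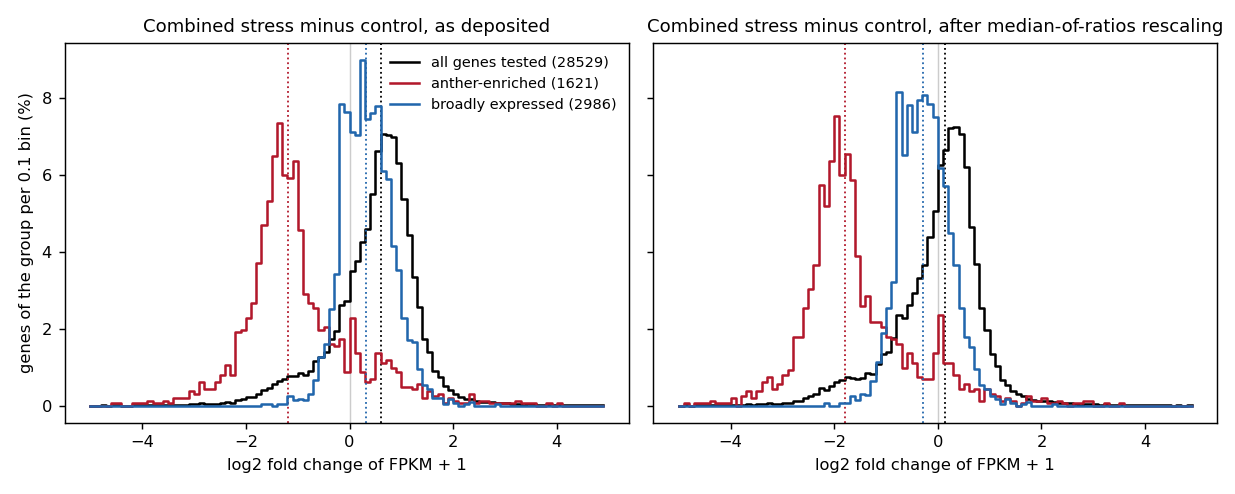
Distribution of log2 fold changes of FPKM + 1, combined stress minus control, for all genes tested, anther-enriched genes and broadly expressed genes, as deposited (left) and after rescaling (right), as percent of each group per bin of 0.1, with dotted lines at the medians. The anther-enriched median lies at -1.19 and -1.80, below 0 on both scales, and the broadly expressed median moves from 0.31 to -0.28.

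The direction also followed abundance. Genes were divided by their mean in the water-deficit libraries, in which 1 gene was called against control. Among the 11439 genes at 1 to 5 FPKM, 6737 were called higher and 380 lower as deposited, with a median log2 fold change of 0.72, and 2978 and 868 after rescaling, with a median of 0.26. Among the 776 genes at 100 to 1000 FPKM, 531 were called lower as deposited, with a median of -1.05, and 599 after rescaling, with a median of -1.68. Of the 74 genes at 1000 FPKM or more, 67 were called lower and 4 higher as deposited, 70 and 1 after rescaling, and 70 of these 74 were anther-enriched. Anther-enriched and other genes of like abundance were set side by side. At 100 to 1000 FPKM the median was -1.35 for the anther-enriched genes and -0.14 for the others. After rescaling these medians were -1.98 and -0.77. At 20 to 100 FPKM the corresponding medians were -1.26 and 0.13 as deposited, and -1.86 and -0.49 after rescaling. In these 2 classes the anther-enriched genes were thus the lower set on both scales, and the sign for the others at 20 to 100 FPKM depended on the scale.

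Genes typical of the other flower organs were a small part of every anther library, and those of the sepal held a larger share in each combined-stress library than in any control. Sepal-enriched genes, 725 by the same rule, held 0.0675%, 0.115% and 0.0978% of summed FPKM in control replicates 1, 2 and 3. They held 0.269%, 0.138% and 0.232% in combined-stress replicates 1, 2 and 3. The groups did not overlap (exact permutation p = 0.1, adjusted p = 0.114). In control sepals these genes held 7.72% ± 1.29 (SD, n = 3). The 1119 genes low in the anther and expressed in the other organs went from 0.133% ± 0.0171 (SD, n = 3) to 0.350% ± 0.140, also without overlap. Among the sepal-enriched genes, 82 of the 232 tested were called higher as deposited (35.3%), against 51.8% of all genes tested. Their median log2 fold change was 0.64, against 0.61 for all genes tested. Of the genes low in the anther, 330 of 751 were called higher as deposited (43.9%). After rescaling, 16.8% and 18% of these 2 groups were called higher, against 21% of all genes tested. Of the genes tested, 42 of the 232 and 203 of the 751 reached a mean of 1 FPKM under combined stress alone. They passed the filter only through the libraries in which they were high, which limits what the counts of higher genes in these 2 groups show. Pistil-enriched genes, 376 that mark both ovary and stigma, held 0.253% ± 0.0600 in controls and 0.272% ± 0.149 under combined stress, and the groups overlapped (exact permutation p = 0.9). The profile of an anther library correlated with the mean control sepal at 0.632 to 0.672 in controls and 0.699 to 0.776 under combined stress, across genes, which are not independent replicates. With the mean control ovary the ranges were 0.588 to 0.621 and 0.654 to 0.732. With the mean control stigma they were 0.701 to 0.731 and 0.743 to 0.815. The rise was thus not particular to the sepal. The part that tissue carried over at dissection has in these values was not tested.

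Among the genes that rose, GLYMA_08G068800 had the largest fold change of those that met the conditions for naming. It was at 0.208, 0.249 and 0.264 FPKM in control replicates 1, 2 and 3. It was at 172, 214 and 493 FPKM in combined-stress replicates 1, 2 and 3. All stressed libraries lay far above all controls, and replicate 3 was the highest. The log2 fold change was 7.73 ± 0.31 (SE) as deposited, with an adjusted p of 2.56e-07 in limma, and 7.27 ± 0.32 after rescaling. The gene was at 133 ± 26.0 FPKM (SD, n = 3) under heat alone and at 0.401 ± 0.144 under water deficit alone.

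GLYMA_07G200500 was at 0.391, 0.176 and 0.124 FPKM in the controls and at 110, 124 and 342 FPKM under combined stress. The stressed libraries were again all higher, with replicate 3 above the others. Its log2 fold change was 7.10 ± 0.38 (SE) as deposited, with an adjusted p of 1.12e-06 in limma, and 6.63 ± 0.40 after rescaling. Under heat alone it was at 75.0 ± 13.8 FPKM (SD, n = 3) and under water deficit alone at 1.46 ± 0.848.

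Of the genes that fell, GLYMA_01G121800 was at 741, 373 and 479 FPKM in the controls. Under combined stress it was at 168 and 41.4 FPKM in replicates 1 and 2 and was listed at 0 in replicate 3. The groups did not overlap, but the stressed libraries were far apart. Its log2 fold change was -4.73 ± 1.44 (SE) as deposited, with an adjusted p of 0.0165 in limma, and -5.21 ± 1.42 after rescaling. It was -2.59 without combined-stress replicate 3. The call was lost without control replicate 1, where the adjusted p was 0.0507, and in a fit of the 6 libraries alone, where it was 0.0907.

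GLYMA_09G036200, an anther-enriched gene, was at 195, 185 and 141 FPKM in the controls and at 6.85, 7.05 and 5.47 FPKM under combined stress. The stressed libraries were close together and all far below the controls. Its log2 fold change was -4.54 ± 0.23 (SE) as deposited, with an adjusted p of 7.49e-07 in limma, and -5.11 ± 0.23 after rescaling. It was at 20.5 ± 5.13 FPKM (SD, n = 3) under heat alone and at 111 ± 28.6 under water deficit alone.

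**Figure D4:**
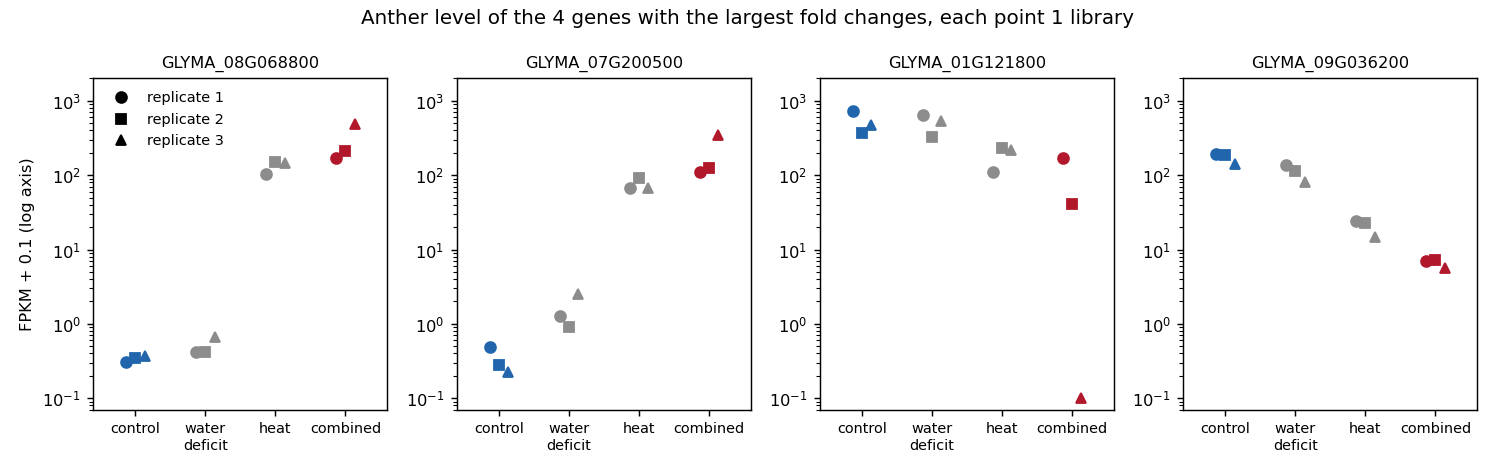
FPKM (log axis, 0.1 added) of the 4 named genes in each anther library under the 4 treatments, with symbols for replicates. The first pair lies below 1 FPKM in controls and above 100 FPKM under combined stress, and GLYMA_09G036200 lies between 5.47 and 7.05 FPKM under combined stress against 141 to 195 in controls, while GLYMA_01G121800 is spread from 0 to 168.

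Some genes were listed at 0 in 1 group and expressed in the other. In all 3 controls 27 genes were listed at 0 that reached 1 FPKM or more in all 3 combined-stress libraries, with a highest mean of 31.1 FPKM. The reverse held for 7 genes, with a highest control mean of 75.6 FPKM. Of the 27, 10 were listed at 0 in all water-deficit libraries too and 1 in all heated ones. No fold is given for these genes, because exact zeros also occurred among well expressed genes: 264 of 13686 genes with an anther mean of at least 5 FPKM were listed at 0 in at least 1 library.

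The comparison with the single stresses uses the same control libraries, and values are given side by side only. The sets of genes that rose or fell were chosen by their values under combined stress. Their medians under combined stress are therefore favoured over those under heat or water deficit. Against control, 4146 genes were called higher under heat (14.5%) and 1131 lower (3.96%) as deposited, and 2718 higher (9.53%) and 1858 lower (6.51%) after rescaling. Under water deficit limma called 1 gene higher (0.00351%) and 0 lower as deposited, with 288 lower at an unadjusted p under 0.05. The 5988 genes higher on both scales under combined stress had a median log2 fold change of 1.23 as deposited, 0.61 under heat and 0.11 under water deficit, and 0.74, 0.47 and 0.11 after rescaling. The 3044 lower genes had medians of -1.02, -0.36 and -0.08, and of -1.59, -0.57 and -0.08 after rescaling. The 83 genes that rose at least 8-fold had medians of 4.22 under combined stress and 3.78 under heat as deposited, and 75 of them were called higher under heat. The 41 that fell at least 8-fold had medians of -3.36 and -1.98 as deposited, and 33 of them were called lower under heat. Tested directly against heat alone, combined stress gave 7200 genes higher and 2438 lower as deposited, and 1218 higher and 3454 lower after rescaling.

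The other organs have control and stressed libraries of their own. Among the genes that rose most in the anther, most of those tested in another organ were called higher in it too. Of the 83 genes at 8-fold or more, 58 were tested in the sepal and 43 of them were called higher there, against 7.19% of all genes tested in the sepal. In the ovary 40 of 58 were called higher, against 11%, and in the stigma 46 of 63, against 11.1%. A gene was tested in an organ if its mean reached 1 FPKM under any treatment there, stressed ones included. Genes low in controls can thus enter through the libraries in which they are high, and members not tested are left out of these counts. The contrast with all genes tested is limited by this. None of the 83 was called lower by limma in any of the 3 organs, though 1 of them (sepal), 0 (ovary) and 1 (stigma) were lower at an unadjusted p under 0.05. In the larger set of 5988 the shares were smaller: as deposited, the sepal had 800 of 5547 called higher, the ovary 1336 of 5487 and the stigma 1450 of 5527, and after rescaling 1121, 1526 and 1544. Of the 3044 lower genes, 1326 of the 2728 tested in the stigma were called lower there (48.6%, against 14.9% of all genes tested), and 629 of 2267 in the sepal (27.7%, against 16.9%), and 547 of 2172 in the ovary (25.2%, against 16.5%). In stigmas 2.81% ± 1.48 (SD, n = 3) of all FPKM fell on anther-enriched genes in controls and 0.869% ± 0.417 under combined stress. The part that anther material in those libraries has in these counts was not tested.

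The difference between the anther's response and that of another organ was tested directly, on 24 libraries and genes that passed the filter in both organs. Between anther and sepal 14884 genes differed as deposited (57.5%) and 6744 after rescaling (26.1%). For anther and ovary, the counts were 13395 (52.3%) and 7024 (27.4%). For anther and stigma, they were 11982 (45.3%) and 6113 (23.1%). On both scales, the anther response was the higher for 3638 genes (14.1%) and the lower for 1098 (4.24%) against the sepal. Against the ovary it was higher for 3852 (15%) and lower for 1233 (4.81%), and against the stigma higher for 3218 (12.2%) and lower for 1077 (4.07%). Here too the higher counts equal those after rescaling alone. The lower counts after rescaling alone were larger, at 3106 (sepal), 3172 (ovary) and 2895 (stigma), so the excess of higher over lower genes depended on the scale. Over all genes tested, the median difference was 0.74, 0.64 and 0.58 as deposited, and 0.18, 0.13 and 0.10 after rescaling. Against all 3 organs at once the anther response was higher for 1643 and lower for 544 of 24778 genes. These counts depend on which libraries enter the fit. With replicate 1 left out of every group, the 3 counts of differing genes fell to 8396, 7666 and 4937 as deposited and to 1835, 2395 and 2080 after rescaling. With replicate 2 left out, they were 12370, 10953 and 9730 as deposited and 3534, 4345 and 3462 after rescaling. With replicate 3 left out, they were 11945, 9399 and 7653 as deposited and 4200, 3855 and 2260 after rescaling.

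The same calculation for the anther-enriched genes was limited to members that passed the filter in the other organ too, 870 of 1621 in the sepal. Of these, 164 had a lower and 92 a higher response in the anther than in the sepal as deposited, against 4.25% and 53.3% of all genes tested. After rescaling these were 263 and 19, against 12% and 14.1%. Against the ovary 222 of 711 were lower and 32 higher as deposited (4.82% and 47.4% of all genes tested), and 314 and 11 after rescaling (12.4% and 15%). Against the stigma 189 of 1359 were lower and 78 higher as deposited (4.08% and 41.2%), and 352 and 12 after rescaling (10.9% and 12.2%). The median difference for these genes as deposited was -0.11 against the sepal, -0.51 against the ovary and 0.06 against the stigma, and after rescaling it was -0.78, -1.15 and -0.56. Against the stigma, the sign of the median difference thus depended on the scale. Within the other organs, the median log2 fold changes of these genes were -0.93 (sepal), -0.62 (ovary) and -1.11 (stigma) as deposited, and 155 of 870, 62 of 711 and 801 of 1359 were called lower, against 16.9%, 16.5% and 14.9% of all genes tested. A member could pass the filter there through the treatment in which it was highest, controls included, which limits what these medians show of direction. Anther-enriched genes held 0.309%, 0.519% and 2.24% of summed FPKM in control sepal replicates 1, 2 and 3, so replicate 3 stood far above the others. Under combined stress they held 0.269%, 0.258% and 0.251% in the sepal. The part that anther material in the libraries of other organs has in these values was not tested. For the 2986 broadly expressed genes, the response in the anther was higher for 1442 and lower for 92 as deposited, and higher for 119 and lower for 812 after rescaling, so its direction against the sepal also turned with the scale. The scale matters far less in the other organs. As deposited, the median log2 fold change over all genes tested there was -0.10 (sepal), -0.02 (ovary) and -0.01 (stigma). After rescaling it was between -0.01 and 0.01.

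**Figure D5:**
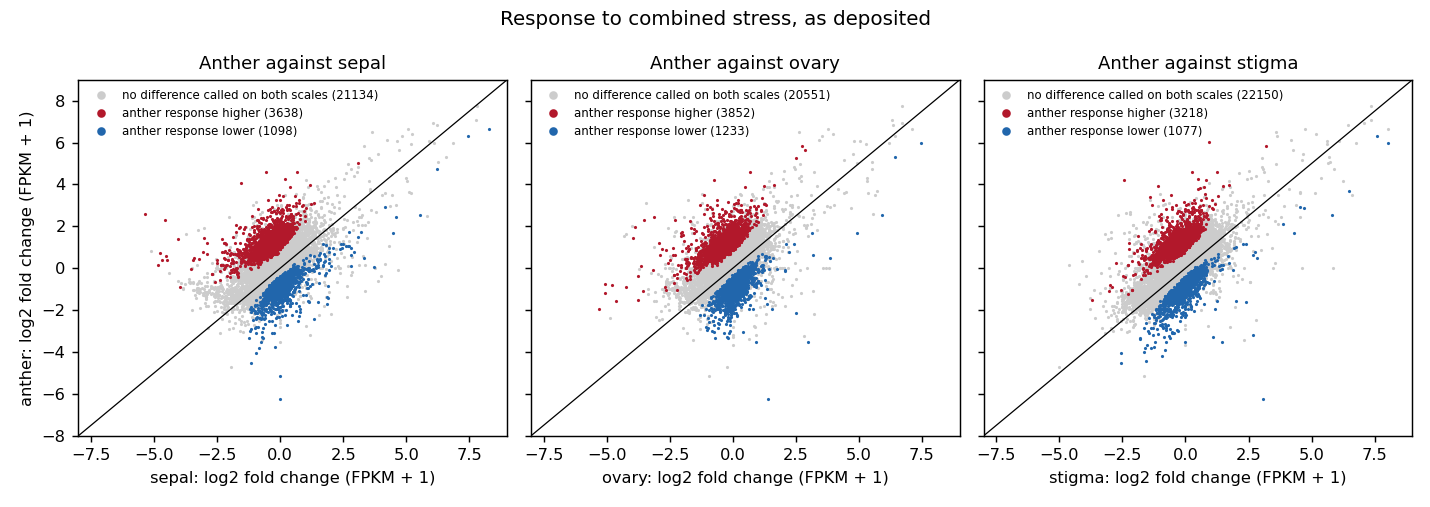
Log2 fold change of FPKM + 1 under combined stress in the anther (y) against that in the sepal, ovary or stigma (x), as deposited, with the line of equal response. Genes whose response differed on both scales are coloured, and the 3638, 3852 and 3218 genes with the higher anther response lie above the line.

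The genes with the largest differences against all 3 organs, 2 in each direction, were chosen after their values were seen. GLYMA_04G178500 was at 3.19, 1.15 and 1.59 FPKM in control anthers and at 52.8, 82.7 and 72.1 FPKM in stressed ones, with no overlap. In anthers under heat alone it was at a like level, 68.5 ± 12.4 FPKM (SD, n = 3), and under water deficit alone at 6.92 ± 3.66. In the sepal its mean went from 6.05 ± 1.75 (SD, n = 3) to 10.2 ± 2.67 FPKM. The anther response exceeded that of the sepal by 3.92 ± 0.51 (log2, SE, adjusted p = 2.38e-05 in limma), that of the ovary by 3.92 ± 0.65 and that of the stigma by 3.34 ± 0.71. GLYMA_17G148000 was at 1.27, 2.24 and 2.00 FPKM in control anthers and at 20.8, 39.2 and 37.0 FPKM in stressed ones. In anthers under heat alone it was at 27.0 ± 18.0 FPKM (SD, n = 3), and under water deficit alone at 3.16 ± 2.75. It was at 9.12 ± 2.07 FPKM (SD, n = 3) in control ovaries and at 3.50 ± 0.568 in stressed ones, so as deposited it rose in the anther and fell in the ovary, with adjusted p of 0.000162 and 0.000856 in limma.

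GLYMA_10G180000 was at 27.4, 25.1 and 29.7 FPKM in control anthers and at 2.81, 2.07 and 1.98 FPKM in stressed ones, which lay close together and far below. In anthers under heat alone it was at 6.46 ± 1.16 FPKM (SD, n = 3), and under water deficit alone at 25.3 ± 6.28. In the sepal it was at 16.2 ± 4.48 FPKM (SD, n = 3) in controls and 12.6 ± 2.82 under combined stress. The anther response was below that of the sepal by a log2 difference of -2.79 ± 0.28 (SE, adjusted p = 5.00e-06 in limma) and below those of the ovary and stigma by -2.78 ± 0.30 and -2.67 ± 0.30. GLYMA_18G094600 was at 0.0692 FPKM in control anther replicate 1 and listed at 0 in replicates 2 and 3, and it was at 2.01, 3.17 and 15.4 FPKM under combined stress. In anthers under heat alone it was at 2.36 ± 1.51 FPKM (SD, n = 3), and under water deficit alone at 0.0260 ± 0.0450. In the sepal it went from 1.18 ± 0.861 FPKM (SD, n = 3) to 118 ± 96.6. On the log2(FPKM + 1) scale the anther response was below that of the sepal by -3.02 ± 0.84 (SE, adjusted p = 0.00583 in limma). That difference depended on the value added before taking logs: with 0.1 FPKM added in place of 1 it was -1.11 against the sepal (adjusted p = 0.356 in limma), -2.36 against the ovary (0.0278) and -2.38 against the stigma (0.0642). Without replicate 2 of every group the difference from the sepal was -2.01 (adjusted p = 0.143 in limma).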

How the data were processed

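RNA was sequenced as paired reads of 150 bases. Reads were aligned with HISAT2 2.2.1, per the submitters' processing notes, and the authors deposited FPKM per gene in a separate file for every organ. The sources used here do not give the counting tool, genome build or annotation. Of the 57147 identifiers in a file, 1250 begin with ENSRNA and may include near-identical copies, so their values are uncertain. Read counts were not analysed here, so no counting interval is given.

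Genes with a mean of at least 1 FPKM in any of 4 treatments were tested with limma 3.58.1 (trend, robust moderation, two-sided) in R 4.3.3 on log2(FPKM + 1), so folds of low genes are understated. Tables were read with the package data.table (version 1.17.8) and figures drawn with matplotlib 3.10.9. Adjusted p-values cover all genes tested. Organ-enriched groups came from water-deficit means with 0.1 FPKM added. Named genes had to be called on both scales, reach a mean of 5 FPKM and not overlap, and without gene names only 2 in each direction were kept, by fold change. Members, groups and lists were chosen with earlier results of these data known. On simulated data for this comparison with 28529 genes and 50 changed at each size, 12% of 1.5-fold, 50% of 2-fold, 90% of 4-fold and 98% of 8-fold changes were recovered, with 12 false calls. The simulation used independent normal noise and changed only genes above 5 FPKM in controls, with rises and falls in equal number. It held no shift in library makeup and far fewer changed genes than were called here. These rates may therefore not hold for the real comparison. Alternatives covered scaling, pseudocount, filter, fit, replicate block and left-out libraries.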

Additional observations from a re-analysis of the deposited data

Results flagged for a closer look

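The response to combined stress differed between the anther and each other organ by the test of the difference itself. On both scales it differed for 4736 genes against the sepal, 5085 against the ovary and 4295 against the stigma. No group was large enough to test for a single library apart from the rest.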

How the results depend on the processing

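Against 14766 as deposited, genes higher numbered 5988 after median-of-ratios rescaling, 7727 of 26908 with anther-enriched genes left out and each library rescaled to its remaining FPKM, and 4201 with median-of-ratios factors from genes above 0 in every library, an alternative chosen after seeing the data. Against 3044, genes lower numbered 5389 and 5906 under the first and last of these. A filter of 5 FPKM left 9110 genes higher. With factors from genes at 5 FPKM or more, also chosen after seeing the data, 10933 were higher after rescaling and on both scales. The median of broadly expressed genes was -0.28 after rescaling, -0.14 with anther-enriched genes left out and the rest rescaled, -0.41 with the factors above 0 and 0.043 with those at 5 FPKM. The cause was not tested.

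Leaving out 1 library at a time gave 11821 to 14887 genes higher and 2659 to 2986 lower as deposited, 4065 to 4996 and 4384 to 5211 after rescaling, and 4065 to 4996 and 2654 to 2980 on both scales. The difference in the anther-enriched share ran from -25.8 to -20.6 percentage points. With replicate numbers left out in turn, genes differing between anther and sepal numbered 8396 to 12370 as deposited, between anther and ovary 7666 to 10953, and between anther and stigma 4937 to 9730. After rescaling, these counts were 1835, 3534 and 4200 for the sepal, 2395, 4345 and 3855 for the ovary and 2080, 3462 and 2260 for the stigma without replicate 1, 2 and 3. Rescaling alone gave 6744, 7024 and 6113. The fall differed with the replicate left out, and its cause was not tested.

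Same-numbered control and combined-stress libraries correlated at -0.0957, -0.138 and 0.0701 in their deviations, and those with different numbers at -0.0533 to 0.154. With 3 libraries a group, such values cannot show whether samples with the same number were grown or processed together. With the replicate block, 14393 genes were higher and 2983 lower as deposited, and 5516 and 5181 after rescaling. For the anther-enriched share, the exact permutation test within replicate numbers gave p = 0.25, the smallest it allows. Of the 4 genes named by fold change, GLYMA_01G121800 alone lost its call under a setting tried, and of the 4 named by organ difference, GLYMA_18G094600 alone lost such a call. Depth is known only relatively, which limits what can be said of low genes.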
